A study of Homo sapiens with 12 samples.

Results

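The inhibitor of DNA binding genes ID1, ID2, ID3 and ID4, the bone morphogenetic protein (BMP) ligands BMP2, BMP4 and BMP7, and the inhibitory SMADs SMAD6 and SMAD7 were examined in pancreatic ductal adenocarcinoma cells with and without knock down of focal adhesion kinase (FAK, gene PTK2). Every probe whose gene name in the deposited table was 1 of these 9 symbols was taken, which gave 14 of 47228 gene probes on Illumina HumanHT-12 v4 arrays. MIA PaCa-2 and Capan-1 cells, established pancreatic carcinoma lines, carried a scrambled hairpin (shCtrl) or 1 of 2 FAK hairpins, sh1209 and sh1319, in the doxycycline-inducible PLKO.1 tet-on vector. In the Capan-1 labels the latter reads shFAK1319 and was taken as sh1319. All 6 groups, shCtrl included, grew under puromycin, at 3.5 ug/ml in the case of MIA PaCa-2 and 1.5 ug/ml in that of Capan-1, and the protocol gives 50 ng/ml doxycycline for 96 hours to induce the hairpins. Each group had 2 arrays, 12 arrays in all on 1 chip. The sources used here do not state if both arrays of each group derive from independent cultures, so the p-values measure the spread between these samples only, which may be technical.

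BMP ligands bind pairs of serine/threonine kinase receptors, which phosphorylate SMAD1, SMAD5 and SMAD9. These join SMAD4 and enter the nucleus, where the ID genes are among the most direct targets. ID proteins lack a DNA binding domain, pair with E proteins and keep them off DNA, and in pancreatic cancer they are studied for their part in growth and the response to TGF-beta. SMAD6 and SMAD7 are induced by the pathway and block it at the receptor. Capan-1 is known as a SMAD4-deficient line, whereas MIA PaCa-2 keeps SMAD4.

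The upstream sequences of the 3 ID genes with a clear signal are printed because the results below turn on their transcript levels. Each is the 250 bases before a transcription start in RefSeq, build GRCh38.p14, read 5′ to 3′ on the gene's strand. Capitals mark any match to GGCGCC, a motif bound by SMAD1 and SMAD5, CAGAC, a SMAD box, or CAGCTG, an E box, each searched on both strands.
ID1, chr20:31605039-31605288, plus strand: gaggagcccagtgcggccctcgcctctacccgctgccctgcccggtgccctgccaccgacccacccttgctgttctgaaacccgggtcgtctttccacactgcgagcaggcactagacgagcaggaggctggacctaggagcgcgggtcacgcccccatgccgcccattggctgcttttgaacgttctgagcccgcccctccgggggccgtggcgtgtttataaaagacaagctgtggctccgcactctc
ID2, chr2:8681806-8682055, plus strand: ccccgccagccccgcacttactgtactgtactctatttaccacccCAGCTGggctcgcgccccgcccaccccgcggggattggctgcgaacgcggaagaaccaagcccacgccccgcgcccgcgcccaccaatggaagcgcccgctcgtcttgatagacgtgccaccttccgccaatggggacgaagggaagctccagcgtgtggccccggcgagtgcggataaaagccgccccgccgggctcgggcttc
ID3, chr1:23559502-23559751, minus strand: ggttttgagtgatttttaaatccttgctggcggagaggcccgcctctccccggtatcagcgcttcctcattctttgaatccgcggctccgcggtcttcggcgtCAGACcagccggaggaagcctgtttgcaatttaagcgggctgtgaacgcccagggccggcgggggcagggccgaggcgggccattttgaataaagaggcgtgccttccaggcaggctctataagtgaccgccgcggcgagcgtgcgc
The ID1 window held none of the 3 motifs, the ID2 window held 1 CAGCTG and the ID3 window held 1 CAGAC. Over the windows of 7 of the 9 genes, 11 windows in all, GGCGCC was found in 1, CAGAC in 6 and CAGCTG in 2. Of all 35116 windows of the same length, 16.4% held GGCGCC, 38% held CAGAC and 14% held CAGCTG. A match is a description of the letters and not evidence of binding.

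The values below are background-corrected, quantile-normalized log2 intensities, on which the lowest signal of a detected probe lay between 4.55 and 4.74 in the 12 arrays. A probe counted as detected on an array at a detection p-value under 0.05, and between 16259 and 19814 probes were detected on an array. Levels are given for each probe across groups, since levels of different probes are on different scales. Changes of dim probes are understated by the offset used in the background correction. Because RNA came from whole cultures, fewer cells expressing a gene and less RNA per cell cannot be told apart. PTK2 probe 450253 fell with each hairpin, with log2 changes of -2.24 (sh1209) and -2.48 (sh1319) in MIA PaCa-2, then -0.61 and -1.78 for Capan-1 (limma, adjusted p = 1.5e-07, 5.2e-08, 0.0036 and 5.9e-06), and its dimmer probe 2680750 was called in none of the 4 pairs. The PTK2 call with sh1209 in Capan-1 was lost with median scaling (-0.42, limma, adjusted p = 0.23). Against the labelled cell types, keratin genes KRT8 and KRT18 were detected on all 12 arrays, but EPCAM and CDH1 were detected in MIA PaCa-2 on 2 and 0 of 6 arrays. Of the markers of leukocytes, fibroblasts and endothelial cells, PTPRC, CD3E, DCN, COL1A1, PDGFRB and CDH5 passed the detection filter with no probe, whereas CD68 (3 probes), LYZ (2) and LUM, PECAM1 and VWF (1 each) passed it.

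Of the 14 probes, 13 passed the detection filter, as did 24207 of all probes. The exception was ID4 probe 460364, detected on 0 of 12 arrays, with intensities between 78.7 and 93.0 where the median intensity of an array was 87.7 to 97.0. ID1 and both ID2 probes were detected on all 12 arrays, whereas ID3, BMP4 and BMP7 each had a strong signal in 1 line and little or none in the other. BMP2 probe 4280577 was detected on 4 arrays, all Capan-1, and never rose above 4.94. SMAD7, an inhibitor that recruits ubiquitin ligases to the receptor, had 2 dim probes with levels between 4.28 and 5.38. Low signal limits what BMP2 and SMAD7 can show.

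**Figure D1:**
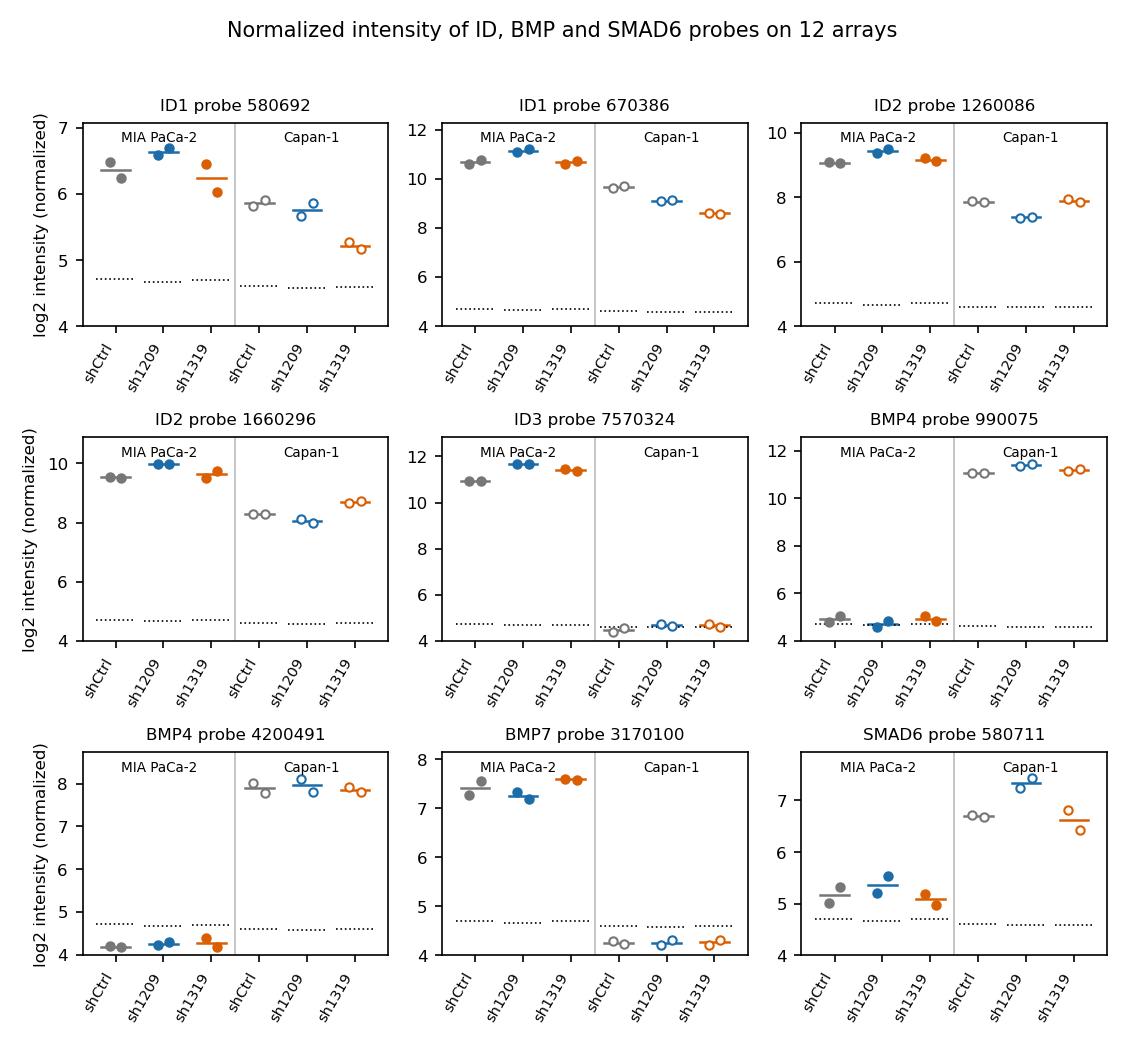
Normalized log2 intensity (y axes) of 9 probes of ID1, ID2, ID3, BMP4, BMP7 and SMAD6 on the 12 arrays, by cell line and hairpin (x axes). Filled circles are MIA PaCa-2 arrays, open circles Capan-1 arrays, solid bars group means of 2 arrays and dotted bars the lowest signal of a detected probe, averaged over the group's arrays; ID3 and BMP7 stand close to or below the dotted bars in Capan-1, as does BMP4 in MIA PaCa-2.

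Without FAK knock down, the cell lines expressed different members of the pathway. With shCtrl, 10 of 13 member probes differed between MIA PaCa-2 and Capan-1, 6 higher and 4 lower in MIA PaCa-2 (limma, adjusted p under 0.05), where 42.1% of all tested probes differed, 22.5% higher and 19.6% lower. The higher ones were ID1, ID2, ID3 and BMP7, and the lower ones BMP4 and SMAD6.

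ID3, an ID protein with broad expression in dividing cells, had a strong signal in MIA PaCa-2 and one near background in Capan-1. The shCtrl arrays of MIA PaCa-2 read 10.93 and 10.95 for probe 7570324, with deposited intensities of 2099.5 and 1959.0. The shCtrl arrays of Capan-1 read 4.39 and 4.54, with intensities of 87.3 and 95.5, and the probe was detected on neither. On the background-corrected scale MIA PaCa-2 cells thus had at least 81.0-fold more ID3 signal (limma, adjusted p = 2.1e-12), measured against the lowest detected signal of the Capan-1 arrays. The fitted ID3 difference was 6.47, and without background correction it was 4.45 (21.9-fold), so the bound holds on the corrected scale only.

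ID1 and ID2 had signal in both lines and more in MIA PaCa-2. ID1 probe 670386 read 10.61 and 10.75 with shCtrl in MIA PaCa-2, against 9.62 and 9.70 for Capan-1, a log2 difference of 1.02 ± 0.11 (SE; 2.02-fold, adjusted p = 1.5e-05). The dimmer ID1 probe 580692 differed the same way by 0.50 (limma, adjusted p = 0.021). Its call was lost without MIA PaCa-2 shCtrl replicate 1 or either Capan-1 shCtrl array, with differences from 0.38 to 0.54, and with median scaling (0.25, limma, adjusted p = 0.43). For ID2, which has roles in differentiation and the cell cycle, probes 1260086 and 1660296 were higher in MIA PaCa-2 by 1.21 and 1.24 (limma, adjusted p = 2.3e-06 and 3.8e-06).

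BMP4 and BMP7 were expressed in opposite lines. BMP4 probe 990075 read 11.09 and 11.06 with shCtrl in Capan-1 and 4.79 and 5.03 in MIA PaCa-2, a difference of -6.16 ± 0.14 (SE; 71.3-fold lower in MIA PaCa-2, adjusted p = 1.3e-11). Without background correction that BMP4 difference was -4.44 (21.7-fold). A second probe, 4200491, was detected on 6 of 6 Capan-1 arrays and 0 of 6 MIA PaCa-2 arrays. On the corrected scale it lay at least 9.14-fold lower in the latter (limma, adjusted p = 9.8e-10). The fitted difference was -3.71, and without background correction it was -1.94 (3.83-fold). The third BMP4 probe, 5490035, was at most 5.24 on any array and was detected on 0 of 6 MIA PaCa-2 arrays, so no fold is given, and its call in this comparison (-0.36, limma, adjusted p = 0.046) was lost without any 1 of 10 of the 12 arrays, where it lay between -0.38 and -0.34. BMP7, a ligand that signals with ACVR1 and related receptors, showed the reverse order. Its probe 3170100 read 7.27 and 7.56 with shCtrl in MIA PaCa-2 and was detected on 0 of 6 Capan-1 arrays. On the corrected scale its signal in MIA PaCa-2 was thus higher by at least 7.04-fold (limma, adjusted p = 1.7e-09). The fitted difference was 3.16, and without background correction it was 1.50 (2.84-fold).

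SMAD6, which preferentially inhibits BMP receptor signalling, was higher in the line with BMP4. Probe 580711 read 6.72 and 6.68 with shCtrl in Capan-1 and 5.01 and 5.32 in MIA PaCa-2, a difference of -1.53 ± 0.17 (SE; 2.90-fold lower in MIA PaCa-2, adjusted p = 1.7e-05), and of -0.70 without background correction. In contrast, neither BMP2 (-0.19, 95% interval -0.45 to 0.07) nor the SMAD7 probes 3890709 (-0.05, -0.42 to 0.32) and 4220767 (0.25, -0.31 to 0.81) passed the threshold.

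With sh1209 in MIA PaCa-2, probes of the 3 expressed ID genes rose and none of the ligands or inhibitory SMADs passed the threshold. Of 13 member probes, 4 rose and 0 fell (limma, adjusted p under 0.05), against 18.0% of all tested probes, 9.05% higher and 8.99% lower. The 4 were ID1 probe 670386, both ID2 probes and ID3. The median change over the 13 probes was 0.16, against 0.01 over all tested probes. The groups did not overlap for 8 of the 13, as for 54.2% of all tested probes. Of the 4 calls, only that of ID3 was shared by sh1319, with which PTK2 changed by -2.48, against -2.24 with sh1209.

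ID3 showed the largest rise among the member probes. Its arrays read 11.67 and 11.67 with sh1209, against 10.93 and 10.95 with shCtrl, so the groups did not overlap. The change was 0.73 ± 0.11 (SE; 1.66-fold, 95% interval 0.48 to 0.97, adjusted p = 8.8e-04). It passed the threshold without any 1 of the 12 arrays.

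ID1 and ID2 rose less. ID1 probe 670386 read 11.07 and 11.20 with sh1209 against 10.61 and 10.75 with shCtrl, a change of 0.46 ± 0.11 (SE; 1.37-fold, adjusted p = 0.016), and ID1 probe 580692 changed by 0.28 (-0.07 to 0.62, limma, adjusted p = 0.27). ID2 probe 1660296 read 9.98 and 9.99 against 9.56 and 9.51, a change of 0.45 (limma, adjusted p = 0.020), and ID2 probe 1260086 changed by 0.36 (limma, adjusted p = 0.038). In all 3 calls the sh1209 arrays were both above the shCtrl arrays. The ID1 call was lost without shCtrl replicate 1 or sh1209 replicate 2 of MIA PaCa-2 (0.38 to 0.39), that of ID2 probe 1660296 without any of the 4 arrays compared (0.43 to 0.47), and that of ID2 probe 1260086 without any 1 of 8 shCtrl or sh1209 arrays of either line (0.30 to 0.42). With median scaling all 3 changes were 0.38 to 0.42 and none passed (limma, adjusted p = 0.33, 0.34 and 0.28).

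With sh1319 in MIA PaCa-2, only ID3 passed the threshold among the 13 member probes. It rose, against 24.3% of all tested probes called, 12.2% higher and 12.1% lower. ID3 read 11.46 and 11.35, above both shCtrl arrays, a change of 0.46 ± 0.11 (SE; 1.38-fold, 95% interval 0.22 to 0.71, adjusted p = 0.010). The call was lost without sh1319 replicate 1 of MIA PaCa-2, at 0.41. ID1 probe 670386 read 10.61 and 10.73, against 10.61 and 10.75 with shCtrl, so the groups overlapped, and its change was -0.01 (-0.26 to 0.24). The ID2 changes of 0.09 and 0.10 did not pass the threshold.

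The ligands and inhibitory SMADs of MIA PaCa-2 did not pass with either hairpin. BMP7 read 7.33 and 7.20 with sh1209 and 7.61 and 7.58 with sh1319, against 7.27 and 7.56 with shCtrl, and its changes were -0.15 (-0.43 to 0.12) and 0.18 (-0.10 to 0.45). SMAD6 read 5.20 and 5.53, 5.20 and 4.97, and 5.01 and 5.32 in the same order and overlapped in each case. SMAD7 probe 4220767 had the widest intervals, with changes of -0.55 (-1.11 to 0.01) and -0.42 (-0.99 to 0.14). The groups did not overlap in the comparison of sh1319 with shCtrl for 4 of 13 member probes, against 56.9% of all tested probes.

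The hairpins were compared with each other in the same line. In MIA PaCa-2, 2 of 13 member probes differed, both higher with sh1209, where 22.6% of all tested probes differed, 11.5% higher and 11.2% lower. ID1 probe 670386 was higher with sh1209 by 0.47 (limma, adjusted p = 0.011), and ID2 probe 1660296 by 0.35 (limma, adjusted p = 0.049). The ID1 call was lost without sh1319 replicate 1 or sh1209 replicate 2 of MIA PaCa-2 (0.41 and 0.40) and the ID2 call without any 1 of 11 of the 12 arrays (0.25 to 0.36). For ID3 the hairpins differed by 0.26 (0.02 to 0.51, limma, adjusted p = 0.12). ID3 was the 1 member probe called in the same direction with both hairpins in MIA PaCa-2, as 8.48% of all tested probes were. The comparisons of sh1209 and of sh1319 share the shCtrl arrays.

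**Figure D2:**
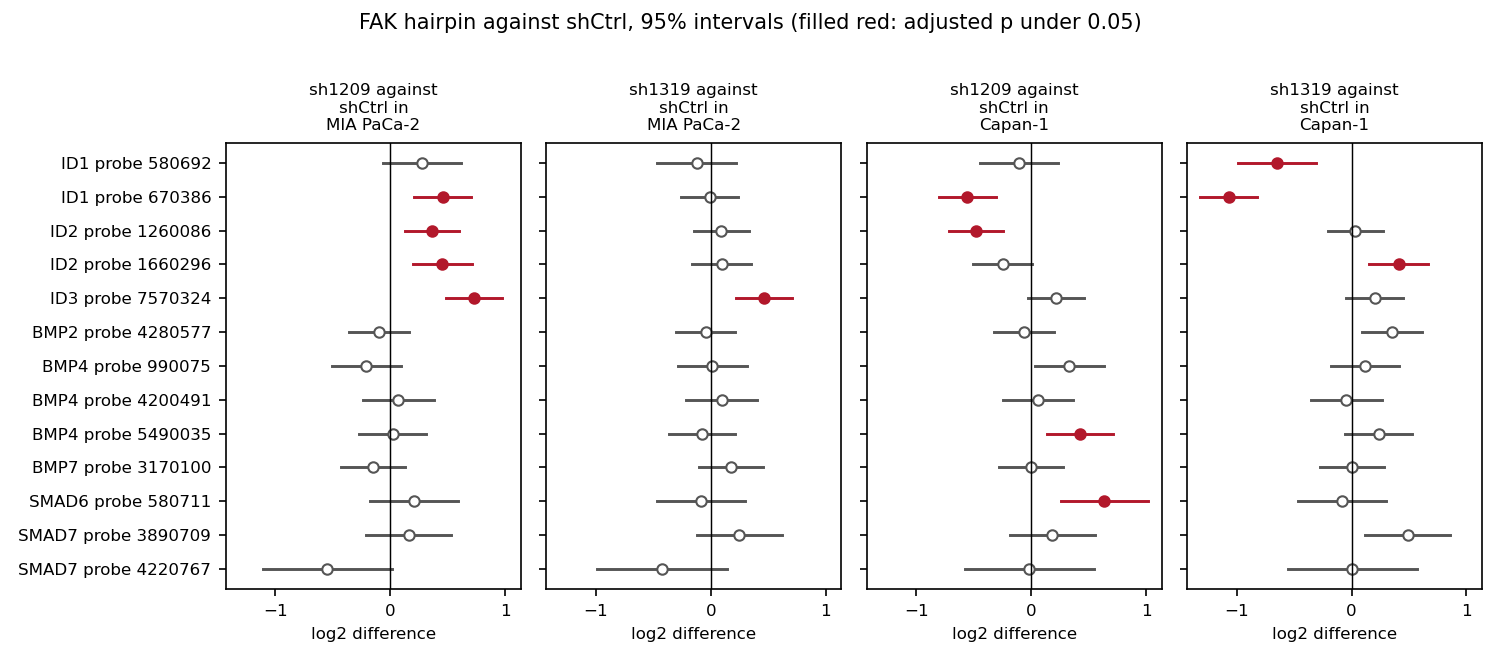
Log2 difference between each FAK hairpin and shCtrl (x axes) for the 13 tested member probes (y axis), in MIA PaCa-2 (left pair) and Capan-1 (right pair). Points are differences of group means of 2 arrays each, lines 95% intervals and filled red points those with an adjusted p under 0.05: ID3 is red in both MIA PaCa-2 panels and ID1 probe 670386 lies at -0.56 and -1.07 in the Capan-1 panels.

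In Capan-1, sh1209 lowered ID1 and an ID2 probe and raised SMAD6. Of 13 member probes, 2 rose and 2 fell, against 16.8% of all tested probes called, 8.14% higher and 8.69% lower. The groups did not overlap for 8 of 13, as for 55.5% of all tested probes. The median change was 0.00 over the member probes and -0.01 over all tested probes.

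ID1 probe 670386 read 9.08 and 9.13 with sh1209 in Capan-1, below both shCtrl arrays at 9.62 and 9.70. The change was -0.56 ± 0.11 (SE; 68.1% of shCtrl, adjusted p = 0.0061). It was lost without shCtrl replicate 2 of Capan-1 (-0.52) and with median scaling (-0.36, limma, adjusted p = 0.35). ID1 probe 580692 read 5.66 and 5.86 and overlapped shCtrl, with a change of -0.10 (-0.44 to 0.24).

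For ID2, probe 1260086 fell from 7.87 and 7.85 to 7.37 and 7.39, a change of -0.48 (limma, adjusted p = 0.010), and probe 1660296 changed by -0.25 (-0.50 to 0.01, limma, adjusted p = 0.20). Both arrays with sh1209 were below both shCtrl arrays for each probe. The call of probe 1260086 was lost without any of the 4 arrays compared (-0.49 to -0.47) and with median scaling (-0.22, limma, adjusted p = 0.64).

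SMAD6 read 7.24 and 7.44 with sh1209 in Capan-1 against 6.72 and 6.68 with shCtrl. It rose by 0.64 ± 0.17 (SE; 1.56-fold, 95% interval 0.26 to 1.02, adjusted p = 0.027), a call that was lost without any of the 4 arrays compared (0.54 to 0.74). The second rise was in the dim BMP4 probe 5490035 (0.42, limma, adjusted p = 0.048), which was lost without any 1 of 11 of the 12 arrays (0.24 to 0.44) and which the brighter BMP4 probes did not share at the threshold. Probe 990075 read 11.36 and 11.45 against 11.09 and 11.06, with a change of 0.33 (0.03 to 0.63, limma, adjusted p = 0.13), and probe 4200491 changed by 0.06 (-0.25 to 0.37).

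With sh1319 in Capan-1, ID1 fell on both of its probes. Of 13 member probes, 1 rose and 2 fell, against 13.7% of all tested probes called, 6.95% higher and 6.77% lower. ID1 probe 670386 read 8.62 and 8.58, below every other Capan-1 array, a change of -1.07 ± 0.11 (SE; 47.8% of shCtrl, 95% interval -1.31 to -0.82, adjusted p = 1.4e-04). ID1 probe 580692 read 5.27 and 5.16 against 5.82 and 5.90, a change of -0.65 (limma, adjusted p = 0.017). The first passed without any 1 of the 12 arrays, and the second was lost without any of the 4 arrays compared (-0.70 to -0.59) and with median scaling (-0.44, limma, adjusted p = 0.21).

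ID2 moved differently from ID1 with sh1319 in Capan-1. Probe 1660296 read 8.67 and 8.74 against 8.29 and 8.30 with shCtrl, a rise of 0.41 (limma, adjusted p = 0.039), while probe 1260086 read 7.94 and 7.85 against 7.87 and 7.85, a change of 0.03 (-0.20 to 0.27). The ID2 probes thus did not both pass. The rise was lost without any of the 4 arrays compared or either MIA PaCa-2 sh1209 array (0.38 to 0.44), with median scaling (0.58, limma, adjusted p = 0.085) and with only the Capan-1 arrays (0.41, limma, adjusted p = 0.054). SMAD6, at 6.82 and 6.42, spanned the shCtrl arrays (-0.08, -0.46 to 0.30), and BMP2 (0.35, limma, adjusted p = 0.073) and SMAD7 probe 3890709 (0.49, limma, adjusted p = 0.081) did not pass. The groups did not overlap for 8 of 13 member probes, against 53.9% of all tested probes.

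In Capan-1 the comparison of the hairpins with one another called 6 of 13 member probes, 3 higher and 3 lower with sh1209, where 11.3% of all tested probes differed, 5.81% higher and 5.47% lower. ID1 was higher with sh1209 by 0.51 and 0.54 (limma, adjusted p = 0.014 and 0.044) and SMAD6 by 0.72 (limma, adjusted p = 0.020). ID2 was lower with sh1209 by 0.66 on probe 1660296 (log2 difference -0.66, limma, adjusted p = 0.0039) and by 0.52 on probe 1260086 (-0.52, limma, adjusted p = 0.0099). BMP2 was also lower (-0.42, limma, adjusted p = 0.044), on a probe at 4.94 or less. Of the 6 calls, that of ID2 probe 1660296 was the 1 that passed without any 1 of the 12 arrays. ID1 probe 670386 was lost without any of the 4 arrays compared (0.49 to 0.54), SMAD6 without either sh1209 array or sh1319 replicate 2 (0.52 to 0.82), ID2 probe 1260086 without either sh1209 array or sh1319 replicate 1 (-0.52 to -0.47), ID1 probe 580692 without any 1 of 8 arrays (0.45 to 0.64) and BMP2 without any 1 of the 12 (-0.52 to -0.32). PTK2 itself was higher with sh1209 than with sh1319 in Capan-1 by 1.16 (limma, adjusted p = 6.2e-05), and its part in these differences was not tested.

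ID1 probe 670386 was the 1 member probe called in the same direction with both hairpins in Capan-1, as 6.97% of all tested probes were. Over the 4 pairs of hairpin and cell line, 7 of the 13 member probes were called in at least 1, against 43.7% of all tested probes. The 6 that were called in none were BMP2, BMP7, BMP4 probes 990075 and 4200491 and both SMAD7 probes. The order of the 6 groups followed from these values. ID1 probe 670386 was highest in MIA PaCa-2 with sh1209 (11.14), then with shCtrl (10.68) and sh1319 (10.67), whose arrays overlapped, and fell in Capan-1 from shCtrl (9.66) to sh1209 (9.11) and sh1319 (8.60) with no overlap. ID3 ran from 11.67 (sh1209) to 11.40 (sh1319) and 10.94 (shCtrl) in MIA PaCa-2 with no overlap, and the Capan-1 groups with a FAK hairpin overlapped at 4.68 and 4.67.

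The response to FAK knock down was then compared between the lines, as the mean change with the 2 hairpins in MIA PaCa-2 minus that in Capan-1. Of 13 member probes, 2 differed, both more positive in MIA PaCa-2, where 14.4% of all tested probes differed, 7.24% in that direction and 7.11% in the other. ID1 probe 670386 changed by 0.22 (0.01 to 0.44) in MIA PaCa-2 and by -0.81 (-1.03 to -0.60) in Capan-1, a difference of 1.03 ± 0.14 (SE, adjusted p = 4.8e-04). It passed under each of the 17 alternatives run for it. ID2 probe 1260086 changed by 0.23 and -0.22, a difference of 0.45 ± 0.13 (SE, adjusted p = 0.042), which was lost without any 1 of 11 of the 12 arrays (0.42 to 0.47) and with median scaling (0.30, limma, adjusted p = 0.59). The second probe of each gene did not pass, at 0.45 (0.03 to 0.87) for ID1 probe 580692 and 0.19 (-0.12 to 0.51) for ID2 probe 1660296. ID3 changed by 0.60 in MIA PaCa-2 and by 0.21 in Capan-1, where it was near background. There it was detected on neither shCtrl array and on both arrays of each FAK hairpin. The ID3 difference of 0.39 did not pass (0.09 to 0.69, limma, adjusted p = 0.086). FAK knock down also went further in MIA PaCa-2, with a PTK2 difference of -1.17 between the lines (limma, adjusted p = 2.1e-04), and its part in the ID1 difference was not tested.

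**Figure D3:**
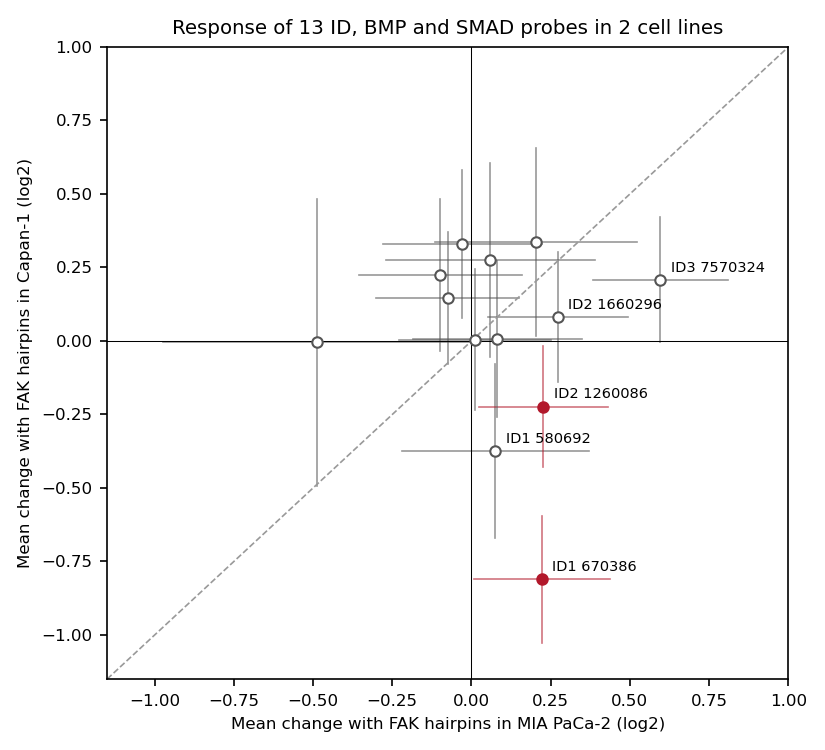
Mean log2 change with the 2 FAK hairpins against shCtrl in MIA PaCa-2 (x axis) and in Capan-1 (y axis) for the 13 tested member probes, with 95% intervals as lines. The dashed line marks equal change and filled red points have a line difference with an adjusted p under 0.05; ID1 probe 670386 lies at 0.22 and -0.81 and ID2 probe 1260086 at 0.23 and -0.22.

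Outside the 9 genes, 62 genes of the BMP pathway were listed by role, of which 40 had a tested probe, 54 probes in all. In MIA PaCa-2, 6 rose and 3 fell with sh1209, and 6 rose and 5 fell with sh1319. In Capan-1, 4 rose and 4 fell with sh1209, and 5 rose and 1 fell with sh1319. The shares called, 16.7%, 20.4%, 14.8% and 11.1% in that order, lay below the 18.0%, 24.3%, 16.8% and 13.7% of all tested probes. Median changes over the 54 probes were 0.03, -0.01, 0.01 and 0.06, against 0.01, -0.01, -0.01 and -0.00 over all tested probes.

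BAMBI, a membrane pseudoreceptor that blocks signalling by BMP and TGF-beta receptors and is itself a known target of both, changed the most. Its probe 430050 read 5.29 and 5.65 with shCtrl in MIA PaCa-2, 9.44 and 9.30 with sh1209, and 9.41 and 9.28 with sh1319. The deposited intensities were 105.0 and 114.0 with shCtrl and 648.7 to 826.3 with the FAK hairpins, so that all 4 knock down arrays stood apart from the controls. The rises were 3.90 ± 0.13 and 3.88 ± 0.13 (SE; 15.0-fold and 14.7-fold, adjusted p = 9.1e-09 and 4.9e-09), and without background correction they were 2.65 and 2.63 (6.27-fold and 6.18-fold). In Capan-1, BAMBI read 8.65 and 8.75 with shCtrl and fell to 7.82 and 7.78 with sh1209 (-0.90, limma, adjusted p = 8.9e-04), while its change with sh1319 was -0.02 (-0.31 to 0.28). The difference between the lines was 4.35 (limma, adjusted p = 3.6e-08), or 3.01 without background correction. Each of these calls passed without any 1 of the 12 arrays.

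Of 11 tested probes of intracellular and membrane inhibitors, 3 rose and 1 fell with sh1209 in MIA PaCa-2, 2 rose with sh1319, and 2 fell with sh1209 in Capan-1. These were 36.4%, 18.2% and 18.2% of the list, against 18.0%, 24.3% and 16.8% of all tested probes, and 0 passed with sh1319 in Capan-1 (13.7% of all). Besides BAMBI, TOB1, an antiproliferative protein that can bind SMADs, read 7.40 and 7.38 with shCtrl in MIA PaCa-2, 8.01 and 8.0 with sh1209, and 8.18 and 7.86 with sh1319. The rises of TOB1 probe 4390300 were 0.61 and 0.63 (limma, adjusted p = 0.0077 and 0.0046), the latter lost without sh1319 replicate 1 (0.47). In Capan-1 TOB1 fell with sh1209 by 0.43 on the log2 scale (limma, adjusted p = 0.048), which was lost without any 1 of 10 of the 12 arrays (-0.51 to -0.35). The line difference for TOB1 was 0.91 (limma, adjusted p = 0.0033). The other calls in this list, PPM1A (group mean from 4.61 to 5.48) and SKIL (from 5.11 to 4.53) with sh1209 in MIA PaCa-2, were singled out after their values were seen. PPM1A had 4 tested probes and SKIL 2, and each gene was called on only 1 of them.

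Among the receptors and co-receptors, 2 of 12 tested probes rose with sh1209 and 2 rose and 3 fell with sh1319 in MIA PaCa-2, and 2 rose with sh1209 and 1 fell with sh1319 in Capan-1. The shares called were 16.7%, 41.7%, 16.7% and 8.33%, against 18.0%, 24.3%, 16.8% and 13.7% of all tested probes. BMPR2, the type II BMP receptor, fell with sh1319 in MIA PaCa-2 and rose with sh1209 in Capan-1 on both probes, each within a dim range of 4.41 to 6.05. Probe 460730 changed by -0.82 and 0.96 (limma, adjusted p = 0.011 and 0.0070; the rise was 0.38 without background correction), and probe 6060475 by -0.58 and 0.41 (limma, adjusted p = 0.0060 and 0.048), the last lost without any 1 of the 12 arrays (0.28 to 0.54). With sh1319 in MIA PaCa-2 probe 6060475 was not detected on either array, so it was at least 1.32-fold lower there. With sh1319 in Capan-1, probes 460730 and 6060475 changed by 0.27 and -0.32, and neither passed the threshold. Leaving out shCtrl replicate 1 or sh1319 replicate 2 of MIA PaCa-2 ended the fall of probe 460730 (-0.52 and -0.64), shCtrl replicate 1 or sh1209 replicate 1 of Capan-1 ended its rise (0.88 to 0.90), and sh1319 replicate 1 of MIA PaCa-2 ended the fall of probe 6060475 (-0.49).

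ACVR1, a type I receptor used by BMP7, read 7.06 and 7.01 with shCtrl and 5.67 and 5.70 with sh1319 in Capan-1, a change of -1.35 (limma, adjusted p = 5.0e-04; -0.72 without background correction). With sh1209 in MIA PaCa-2 ACVR1 probe 6940360 rose by 0.70 (limma, adjusted p = 0.017), which was lost without shCtrl replicate 2 or sh1209 replicate 1 (0.50 to 0.62). ENG, a co-receptor best known in endothelial cells, rose in MIA PaCa-2 from 4.70 and 5.04 to 5.68 and 5.89 with sh1209 (0.91, limma, adjusted p = 8.7e-04) and was detected on 0 of 6 Capan-1 arrays. Its rise with sh1319 (0.44, limma, adjusted p = 0.041) was lost without any 1 of 9 of the 12 arrays (0.26 to 0.54). The other receptor calls, both with sh1319 in MIA PaCa-2 and singled out after their values were seen, were ACVR2A probe 4590349 (4.86 to 5.59) and RGMA (5.37 to 4.81). The second tested ACVR2A probe, 4260681, changed by -0.06 in that comparison (limma, adjusted p = 0.84).

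SMAD5, which carries the BMP signal to the nucleus, fell in MIA PaCa-2 on 1 of its 2 tested probes. Probe 7560367 read 8.32 and 8.22 with shCtrl, 7.59 and 7.28 with sh1209 and 7.89 and 7.84 with sh1319, with changes of -0.83 and -0.41 (limma, adjusted p = 0.0013 and 0.047). The second was lost without any 1 of 10 of the 12 arrays (-0.45 to -0.36). SMAD4, the partner shared by BMP and TGF-beta signalling, was singled out after its values were seen. Its group means on probe 1030289 were 8.17, 8.50 and 7.29 in MIA PaCa-2 (shCtrl, sh1209, sh1319) and 4.80, 4.75 and 4.98 in Capan-1, near the lowest detected signal. SMAD4 fell with sh1319 in MIA PaCa-2 (-0.88, limma, adjusted p = 1.8e-04) and stood higher with sh1209 without passing the threshold (0.33, limma, adjusted p = 0.072), and the hairpins differed by 1.21 (limma, adjusted p = 1.8e-05). Of the 4 tested probes of the SMAD transducers, MIA PaCa-2 had 1 called (sh1209) and 2 called (sh1319), whereas Capan-1 had 0, too few to read against the shares of all tested probes.

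FST, the secreted protein follistatin that binds activins and some BMPs, moved in opposite directions with the hairpins in Capan-1. FST probe 6020286 read 6.87 and 6.93 with shCtrl, 5.62 and 5.54 with sh1209 and 7.47 and 7.46 with sh1319, and was detected on 0 of 6 MIA PaCa-2 arrays. The changes were -1.32 and 0.57 (limma, adjusted p = 8.7e-06 and 0.0046), and the hairpins differed by -1.89 (limma, adjusted p = 8.6e-07). Without background correction the fall with sh1209 was -0.67 and the difference of the hairpins -1.05. FST probe 1260068 also fell with sh1209 (-0.58, limma, adjusted p = 0.0040), to an undetected level at least 1.35-fold lower, and rose with sh1319 (0.45, limma, adjusted p = 0.018), the rise being lost without any of the 4 arrays compared (0.40 to 0.51). Of 13 tested probes of extracellular antagonists and modulators, these were the 2 falls with sh1209 and 2 of the 4 rises with sh1319 in Capan-1. In MIA PaCa-2, 0 passed with either hairpin. The 2 falls and 4 rises in Capan-1 were 15.4% and 30.8% of the list, against 16.8% and 13.7% of all tested probes. The other rises, singled out after their values were seen, were SOSTDC1 (4.51 to 5.92) and BMP1 (4.97 to 5.69).

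**Figure D4:**
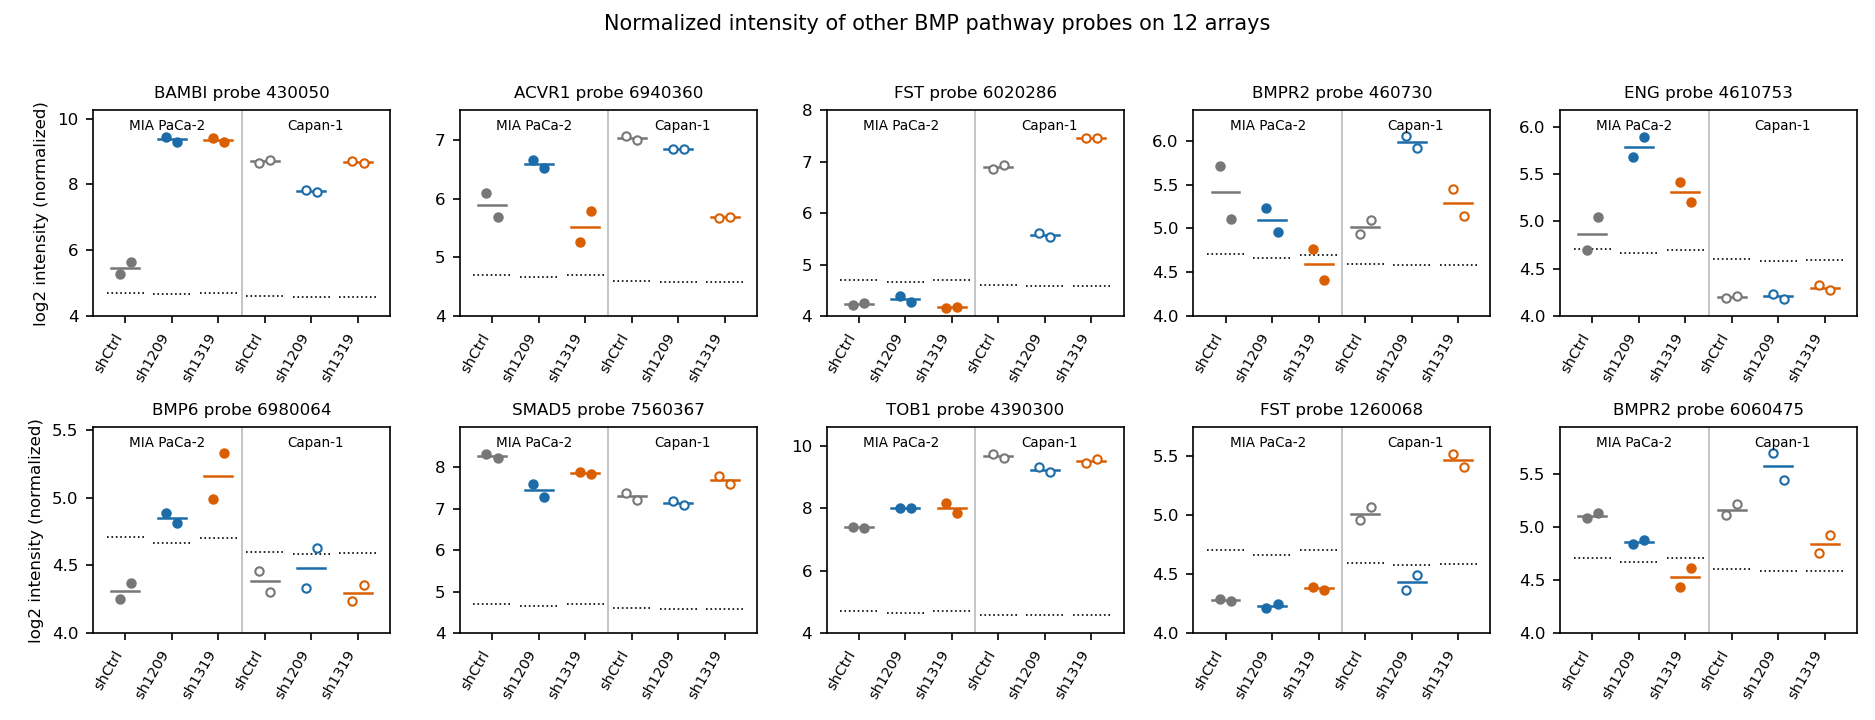
Normalized log2 intensity (y axes) of the 10 probes of other BMP pathway genes that passed the threshold in at least 2 of the 4 hairpin and cell line pairs, on the 12 arrays, by cell line and hairpin (x axes). Filled circles are MIA PaCa-2 arrays, open circles Capan-1 arrays, solid bars group means and dotted bars the lowest signal of a detected probe, averaged over the group's arrays; BAMBI lies at 5.29 and 5.65 with shCtrl in MIA PaCa-2 and at 9.28 or more with each FAK hairpin.

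Of the other BMP ligands, 3 of 12 genes were tested and BMP6 probe 6980064 rose with both hairpins in MIA PaCa-2. It was detected on neither shCtrl array there, read 4.89 and 4.82 with sh1209 and 4.99 and 5.32 with sh1319, so that it was higher by at least 1.10-fold with sh1209 and by at least 1.37-fold with sh1319. The fitted differences were 0.54 and 0.85 (limma, adjusted p = 0.025 and 0.0012), and the bounds themselves were not tested. The BMP6 call with sh1209 was lost without any of the 4 arrays compared. GDF15, a distant member of the family, rose with sh1209 in Capan-1 (10.82 to 11.68) and was singled out after its values were seen. Of 8 tested probes of other genes known to respond to BMP, HEY1 (5.37 to 4.29) fell with sh1209 and MSX1 (8.19 to 8.96) rose with sh1319 in MIA PaCa-2, and MSX2 (5.12 to 5.76) rose with sh1209 and RUNX2 (4.48 to 5.57) with sh1319 in Capan-1, named after their values were seen. Each pair thus had 12.5% of that list called, against 18.0%, 24.3%, 16.8% and 13.7% of all tested probes. HEY1 and RUNX2 had 2 tested probes each, of which only 1 was called. The E proteins, which ID proteins bind, had 3 tested probes and 0 passed in any of the 4 pairs, too few to read against these shares.

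Other genes were ranked by likeness to the brightest ID1 and BMP4 probes, as Pearson's r over the 12 arrays after the mean of each cell line was subtracted. The genes most like ID1 probe 670386 were FAM54A (r = 0.98), ELF1 (0.94) and PA2G4 (0.94), and those most like BMP4 probe 990075 were TCTA (0.89), ORMDL3 (0.88) and CLNK (0.88). FAM54A, for example, stood at 6.91, 7.31 and 6.91 in MIA PaCa-2 and at 6.58, 6.04 and 5.75 in Capan-1 (shCtrl, sh1209, sh1319). These points share their arrays and the correlations are a description.

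The summed intensity of the epithelial markers was lower with the FAK hairpins in MIA PaCa-2, where ID3 rose. Sums in this paragraph are of deposited intensities, without background correction or normalization, and no share over all probes was computed for them. There, 1 of 7 tested epithelial probes fell with sh1209 and 3 fell and 1 rose with sh1319 (14.3% and 57.1% called, against 18.0% and 24.3% of all tested probes), and the summed intensity of the list was 2380.4 to 2505.7 with shCtrl, 1794.7 to 1987.7 with sh1209 and 1473.3 to 1630.6 with sh1319. In Capan-1, where ID1 fell, the ranges were 11483.6 to 12196.7, 11025.9 to 14878.2 and 9532.7 to 13458.1, with 1 epithelial probe higher and 1 lower with sh1209 and 1 lower with sh1319 (28.6% and 14.3% called, against 16.8% and 13.7% of all tested probes). Of 4 tested mesenchymal probes, 1 rose with sh1209 and 2 with sh1319 in Capan-1 and 0 were called in MIA PaCa-2. Over all tested probes, 16.8% and 13.7% were called in Capan-1 and 18.0% and 24.3% in MIA PaCa-2. The mesenchymal list had 25% and 50% of its tested probes called in Capan-1. The summed intensity of that list in Capan-1 was 659.7 to 701.9 with shCtrl, 722.2 to 831.9 with sh1209 and 823.1 to 904.9 with sh1319. Neither hairpin overlapped shCtrl, but only 2 of the list's 7 probes were detected on both arrays of each Capan-1 group. The median intensity of these arrays was 88.7 and 93.1 with shCtrl, 89.4 and 96.6 with sh1209 and 92.8 and 97.0 with sh1319. Its part in the sums was not tested. Of the leukocyte list, LYZ and CD68 had signal in Capan-1, and the list's summed intensity was 5981.2 to 6149.8 with shCtrl, 3521.3 to 4314.4 with sh1209 and 4507.8 to 5790.8 with sh1319, while PTPRC and CD3E were detected on 0 of 6 Capan-1 arrays. Both tested endothelial probes rose with sh1209 in Capan-1, where 16.8% of all tested probes were called. There the summed intensity of the 3 probes on the endothelial list was 250.6 to 272.2 with shCtrl and 292.5 to 325.3 with sh1209. These sums lie close to background. Of the 3 probes, 0 were detected on both shCtrl arrays and 2 on both sh1209 arrays, and CDH5 was detected on 0 of 6 Capan-1 arrays. In the same line the 1 tested fibroblast probe rose with sh1319, where 13.7% of all tested probes were called, while DCN passed with no probe. The endothelial and fibroblast lists had too few tested probes to read against the shares of all tested probes. The part of these shifts in the ID gene results was not tested.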

How the data were processed

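RNA (500 ng per array) was hybridised to 12 Illumina HumanHT-12 v4 arrays, and the authors deposited linear probe intensities that were not normalized, with a detection p-value for each probe, exported from GenomeStudio 2011.1 according to the submitters' processing notes. Background was corrected here by normexp from the detection p-values (offset 16), 92 spike-in controls were dropped, and arrays were quantile normalized and log2 transformed. Tests were run on probes whose detection p-value was under 0.05 on at least 2 arrays. A linear model on the 6 group means was fitted with limma 3.58.1 in R 4.3.3, with Benjamini-Hochberg adjustment over all 24207 tested probes within each of 8 comparisons and a threshold of 0.05. Gene names are those of the array table. Intervals cover the spread between arrays, and the number of arrays limits precision. Where a group was undetected, a fold is a bound against the lowest detected signal, on the background-corrected scale. The p-value beside such a bound is that of the fitted difference.

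The members and gene lists were chosen with earlier results of these data known. Of the pathway lists, probes past the threshold in at least 2 of 4 hairpin and line pairs are named, with the 3 genes most like ID1 and BMP4 by Pearson's r. Groups came from the sample labels. The scripts were tested on simulated data. Alternatives were no background correction, median scaling, other detection filters, a replicate block, the arrays of 1 line, the t-test of the methods and each array left out.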

Additional observations from a re-analysis of the deposited data

Results flagged for a closer look

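MIA PaCa-2 and Capan-1 differed in how they responded to FAK knock down, by the test of the difference itself (mean log2 change in MIA PaCa-2 minus that in Capan-1, limma), for ID1 probe 670386 (1.03, adjusted p = 4.8e-04) and ID2 probe 1260086 (0.45, adjusted p = 0.042). PTK2 probe 450253 also differed (-1.17, adjusted p = 2.1e-04), with the larger fall in MIA PaCa-2.

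Of the other pathway genes, BAMBI (4.35, limma, adjusted p = 3.6e-08), ACVR1 (0.93, 0.014), TOB1 (0.91, 0.0033), BMP6 (0.69, 0.026) and ENG (0.62, 0.032) had a more positive change in MIA PaCa-2. ENG was detected on 0 of 6 and BMP6 on 1 of 6 Capan-1 arrays, so their Capan-1 changes are changes at background. The mean ACVR1 change joins hairpins that differed from each other. ACVR1 levels with sh1209 exceeded those with sh1319 by 1.07 for MIA PaCa-2 and by 1.16 for Capan-1 (limma, adjusted p = 9.1e-04 and 0.0014). BMPR2 probe 460730 (-1.18, limma, adjusted p = 0.0080, and -0.43 without background correction) and SMAD5 probe 7560367 (-0.74, 0.012) had a more positive change in Capan-1. The second BMPR2 probe, 6060475, did not pass (-0.46, limma, adjusted p = 0.076). Leaving out 1 array ended the calls of ACVR1 (2 of 12 arrays, 0.73 to 0.91), ENG (9 arrays, 0.45 to 0.64), BMP6 (5 arrays, 0.61 to 0.76) and SMAD5 (Capan-1 shCtrl replicate 2, -0.65).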

How the results depend on the processing

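Over the alternatives, 2020 values of the member probes were recomputed, of which 1826 kept their side of the threshold. Of the rest, 174 kept direction and lost the call, 20 kept direction and gained it and 0 turned a called direction. Over the member and named pathway probes together, 79 values near 0 changed sign without passing the threshold either way. Counts of member probes called were as follows. With sh1209 in MIA PaCa-2, 4 became 1 with median scaling and 1 with only the arrays of the line. With sh1209 in Capan-1, 4 became 1 with median scaling and 3 with only the arrays of the line. With sh1319 in Capan-1, 3 became 5 by the methods' t-test unadjusted, 2 with the replicate block, 2 with median scaling and 4 with the stricter detection filter. Between hairpins in MIA PaCa-2, 2 became 5 with no background correction, 0 with median scaling (limma), 1 with the replicate block and 1 with only the line's arrays. Between hairpins in Capan-1, 6 became 1 with median scaling and 4 with the block. It became 5 with no background correction, with no filter and with only the line's arrays. For the line difference in response, 2 became 4 with no background correction, 3 with the stricter filter, 1 with median scaling and 1 with the replicate block. Between the lines with shCtrl, 10 became 9 with no background correction and 8 with median scaling. The methods' t-test gave 9 there unadjusted and 8 after adjustment. The methods' t-test after Benjamini-Hochberg adjustment called 0 member probes in the 6 comparisons within a line, and unadjusted 4, 1, 4, 5, 3 and 4. Leaving out 1 array gave 1 to 4, 0 to 2, 0 to 3, 1 to 4, 0 to 2, 1 to 5, 1 to 2 and 8 to 10 member probes over the 8 comparisons.

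Over all tested probes, median scaling gave 2243 and 3846 calls for sh1209 and sh1319 in MIA PaCa-2, 2459 for sh1209 in Capan-1, 3477 and 1217 between hairpins in MIA PaCa-2 and Capan-1 and 1834 for the line difference, against 4365, 5887, 4074, 5478, 2730 and 3475. It moved the share of higher calls from 50.3% to 66.6% and from 50.6% to 85.3% with sh1319 in MIA PaCa-2 and Capan-1, from 48.4% to 81.7% with sh1209 in Capan-1, from 50.6% to 34.7% between hairpins in MIA PaCa-2 and from 50.4% to 31.7% for the line difference. The adjusted t-test gave 1, 4, 0, 0, 1, 2 and 3905 calls over the 7 comparisons it was run for, and unadjusted 4613, 5646, 4935, 4393, 5492, 3988 and 8686. Leaving out 1 array gave 3001 to 4245, 4141 to 5915, 2170 to 4060, 1742 to 3286, 4079 to 5654, 1281 to 2715, 2212 to 3163 and 8493 to 10246. Correlations of deviations between same-numbered arrays were -0.0611 to 0.16, so the numbers were not taken to pair the samples, and the block stands as an alternative only. Causes of these shifts were not tested. Folds of genes near background in 1 group shrank without background correction. Signal close to background limits BMP2, SMAD7 and BMP4 probe 5490035.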
